A study of Mus musculus with 4 samples.

Results

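Endothelial cells with transcripts of lymphatic genes were examined in 4 single-cell libraries of mouse skin tumours. A unique molecular identifier (UMI) marks 1 captured RNA molecule. A cell was taken when it had at least 200 genes and under 20% mitochondrial UMIs, at least 1 UMI of the endothelial genes Pecam1, Cdh5 and Cldn5, no UMI of the leukocyte gene Ptprc or the epithelial gene Epcam, and at least 2 UMIs in sum of the lymphatic genes Prox1, Mmrn1, Flt4 and Lyve1. This gate took 323 of 50887 kept cells, 98 in control 1, 51 in control 2, 68 in NP137 1 and 106 in NP137 2. The cells were chosen by their measured UMIs of the 9 gate genes, so the levels of the 9 gate genes are given as a description with no test. The label of lymphatic endothelium held for most of the 145 gated cells with a Prox1 or Mmrn1 UMI, of which 121 had the lymphatic gene Ccl21a. The other 178 carried mainly blood vessel genes, and some of them macrophage genes. The whole set is therefore called gated cells below.

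Lymphatic vessels drain tissue fluid and carry antigen-presenting cells to lymph nodes. Their endothelium depends on the transcription factor Prox1, grows in response to VEGF-C through the receptor Flt4 (VEGFR-3), and displays the hyaluronan receptor Lyve1 on its initial capillaries. Mmrn1 encodes a secreted multimerin, and Ccl21a encodes the chemokine that attracts Ccr7-bearing dendritic cells to lymphatic vessels. Flt4 is also found on sprouting and fenestrated blood capillaries, and Lyve1 on a class of tissue macrophages, so neither gene alone marks a lymphatic cell.

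All mice were of the genotype called LKPR, which holds Lgr5CreER, p53fl/fl and Rosa26-YFP+/+ among its alleles, and all received 4 tamoxifen injections of 2.5 mg from postnatal day 28. Cre is expressed from Lgr5, a gene of hair follicle stem cells, so recombination and the yellow fluorescent protein (YFP) label start in that lineage and not in endothelium. The control group (2 libraries) had no further treatment named in the labels, and the NP137 group (2 libraries) received NP137, an antibody against netrin-1, which was given until death at a dose of 10 mg/kg, repeated every 2 days and begun 4 weeks from the tamoxifen. Tumours appeared at 7 to 9 weeks, were digested with collagenase, and all live cells were sorted and loaded, 10000 per channel. The series asks what blocking netrin-1 does to these tumours. Nothing in the labels says that the 2 libraries of a group came from separate animals, so each p measures only the spread between these libraries.

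Values of the 4 libraries are given in the order control 1, control 2, NP137 1 and NP137 2 throughout. The kept cells numbered 11677, 5679, 16617 and 16914. Gated cells had a median of 5509, 11087, 2168.5 and 8576 UMIs, deepest in control 2 and shallowest in NP137 1. Of the 323 gated cells 38 were among the highest doublet scores of their library (8, 1, 7 and 22), and they were kept, as the gate has no doublet step. Between 24 and 86 cell barcodes were shared by a pair of libraries, and 2 barcodes shared by NP137 1 and NP137 2 belonged to a gated cell in either library, none in both. Gated cells of NP137 1 included 31 with UMIs of the female gene Xist alone and 7 with UMIs of Y-linked genes alone, while the other libraries held a single kind (89 Xist in control 1, 35 Y-linked in control 2 and 104 Xist in NP137 2). NP137 1 therefore stood apart as a library with cells of both kinds, and its part in the comparisons below is given by the counts without it.

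Among gated cells Prox1 and Mmrn1 were mostly seen with other gate genes, which the gate favours by asking for 2 UMIs in sum. Just outside the gate, 21 of 243 cells had Prox1 or Mmrn1 as their only lymphatic gate UMI. Of the 323 gated cells 100 had a Prox1 UMI, 121 an Mmrn1 UMI, 270 an Flt4 UMI and 212 a Lyve1 UMI, and 62 cells had all 4. Among the 178 cells without Prox1 or Mmrn1, 84 had Flt4 alone, 66 had Flt4 and Lyve1, and 28 had Lyve1 alone. Over all gated cells Prox1 stood at 97.9, 53.8, 241 and 93.0 CPM (UMIs of the gene scaled to the UMI total of the class in that library), Mmrn1 at 297, 207, 657 and 119.7 CPM, Flt4 at 417, 206, 590.4 and 228 CPM and Lyve1 at 447, 398, 1381 and 644 CPM. All 4 genes were highest in NP137 1, the shallowest library. The gate asks for at least 2 of their UMIs at any depth. The lowest CPM at which a cell can enter is thus higher for a shallow cell. The make-up of the gated cells also differed by library, as given below, and the part of either in these levels was not tested. These levels therefore cannot be compared between libraries. The Prox1 or Mmrn1 cells made up 44.9%, 23.5%, 76.5% and 34.9% of the gated cells. Their share was highest in NP137 1, the shallowest library, and lowest in control 2, the deepest. Their median depth was 3550 UMIs over all libraries, against 7758.5 for cells with Flt4 alone and 10749.5 for cells with Flt4 and Lyve1. This division by Prox1 and Mmrn1 was chosen after the values were seen, and values split by it are given without a test.

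**Figure D1:**
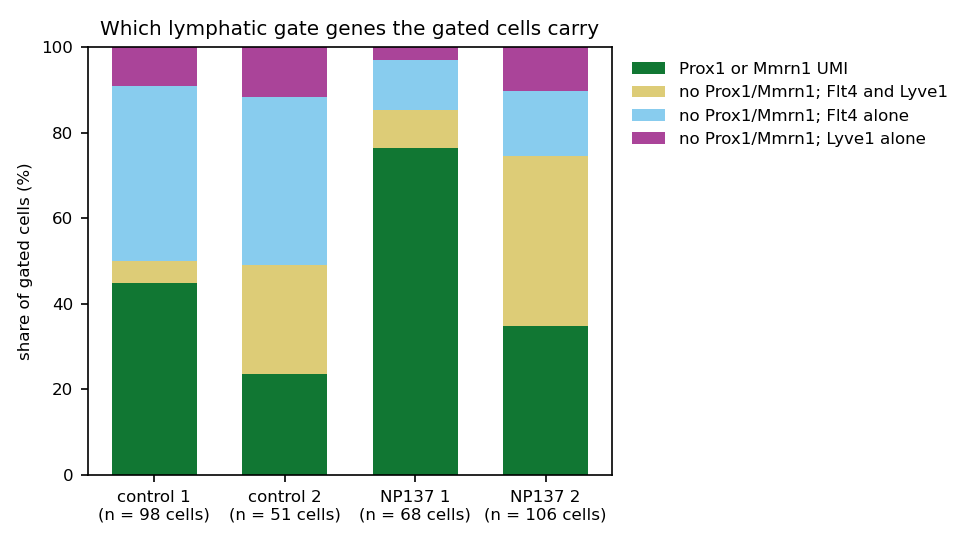
Share of the gated cells of each library (%, y axis from 0) by the lymphatic gate genes they carry, with the number of cells under each bar. Cells with a Prox1 or Mmrn1 UMI range from 23.5% in control 2 to 76.5% in NP137 1.

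Ccl21a, which the gate did not use, separated the cells in the same way. A Ccl21a UMI was found in 121 of the 145 Prox1 or Mmrn1 cells (83.4%) and in 11 of the other 178 (6.18%). Cells with Prox1 but no Mmrn1 had it less often. It was in 4 of 8 of those with Flt4 and Lyve1, 2 of 8 with Flt4, 4 of 7 with Lyve1 and 0 of 1 with neither. Of the cells with all 4 gate genes, 57 of 62 had it. In cells that should lack the gene it was found in 6 of 904 blood endothelial cells (0.664%, median 3699.5 UMIs) and 13 of 5786 leukocytes (0.225%, median 4160 UMIs). By library, 41 of 44, 11 of 12, 47 of 52 and 22 of 37 Prox1 or Mmrn1 cells had a Ccl21a UMI, and the share in NP137 2 (59.5%) was below that of the other libraries (90.4% to 93.2%). Thinned to 1000 UMIs per cell, the Ccl21a shares were 85.0%, 83.3%, 87.5% and 54.1%. Shallower cells left out numbered 4 in control 1, none in control 2, 4 in NP137 1 and none in NP137 2. The lower share in NP137 2 was thus also seen with Ccl21a read at equal depth. The cells were gated and classed before thinning, at medians of 3150.5, 6365.5, 2212 and 7152 UMIs, so depth was not made equal in their choice. Signals of other cells were higher in the Prox1 or Mmrn1 cells of NP137 2. Among the highest doublet scores were 0, 0, 6 and 13 of them, a Lyz2 UMI was found in 9, 2, 2 and 17, and the fibroblast markers summed to 2228, 361, 2127 and 7754 CPM. The part of these signals in the lower share was not tested. Of the 11 Ccl21a cells without Prox1 or Mmrn1, 7 were in NP137 1. They included all 6 cells of that library with Flt4 and Lyve1, of which 0 had a Flt1 UMI.

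The CPM, computed from the summed UMIs of a class in a library, showed the same division. Ccl21a stood at 7413, 12079, 7007 and 2665 CPM in the Prox1 or Mmrn1 cells, at 151, 0, 1616 and 1.33 CPM in the other gated cells, and at 6.67, 1.22, 4.58 and 0.815 CPM in blood endothelial cells. The Prox1 or Mmrn1 cells were highest in each library. Among the other gated cells only those of NP137 1 and control 1 held more than a few counts. In NP137 1 these counts came from 7 of 16 cells. In control 1 they came from 3 of 54 cells, of which 1 held 69 UMIs and the others at most 1. Reln, which encodes the secreted glycoprotein reelin, reached 236, 303, 275 and 78.4 CPM in the Prox1 or Mmrn1 cells. No Reln UMI was found in the 178 other gated cells, which allows a UMI in up to 1.69% of such cells by counting error alone and sets no limit on cells that express the gene, since 67 of the 145 Prox1 or Mmrn1 cells had a UMI. Nts, the gene of the peptide neurotensin, stood at 1674, 1245, 1404 and 1200 CPM in the Prox1 or Mmrn1 cells against 0, 202, 182 and 30.5 CPM in the other gated cells. Sema3d, a secreted semaphorin, stood at 109.7, 244, 96.4 and 121 CPM against 2.12, 0, 20.2 and 3.98 CPM. Levels of the Prox1 or Mmrn1 cells and of the other gated cells did not overlap for any of these genes. How common such separation was among all genes is not given here.

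The opposite held for blood vessel genes. Flt1, the VEGF receptor that binds VEGF-A without strong signalling, stood at 16.5, 0, 20.7 and 112 CPM in the Prox1 or Mmrn1 cells and at 746, 1546, 586 and 1198 CPM in the other gated cells. Vwf, the von Willebrand factor of endothelial granules, stood at 0, 0, 13.8 and 3.01 CPM against 403, 304, 121 and 167 CPM. Emcn, a mucin of capillary and venous endothelium, stood at 132, 58.2, 220.3 and 189.9 CPM against 761, 901, 1050 and 1438 CPM. Plvap, the diaphragm protein of fenestrae, was present in both at 417, 547, 399 and 295 CPM against 1189, 1734, 788 and 1723 CPM, higher in the other gated cells in each library. A Flt1 UMI was found in 9 of the 145 Prox1 or Mmrn1 cells and in 151 of the other 178, and a Vwf UMI in 2 and 105. The 18 blood vessel genes summed to between 1105 and 1302 CPM in the Prox1 or Mmrn1 cells, to between 4463 and 8854 CPM in the other gated cells and to between 3094 and 5731 CPM in blood endothelial cells.

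**Figure D2:**
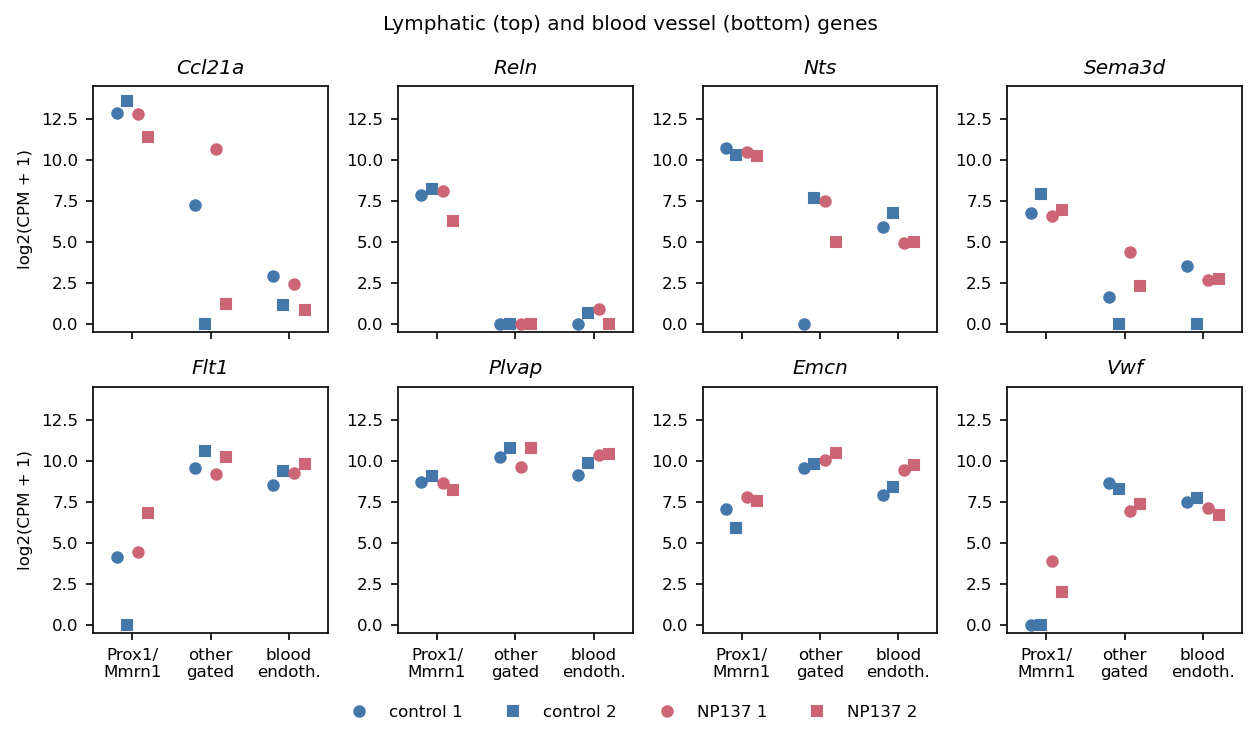
Level of 4 lymphatic genes (top) and 4 blood vessel genes (bottom) as log2(CPM + 1) in the gated cells with a Prox1 or Mmrn1 UMI, the other gated cells and the blood endothelial cells, with 1 point per library (circle, sample 1; square, sample 2; blue, control; red, NP137). Reln is at 0 in the other gated cells of all 4 libraries, and Flt1 and Vwf lie lower in the Prox1 or Mmrn1 cells than in both other classes.

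Of the 28 cells with Lyve1 alone some carried macrophage genes and others blood vessel genes. Their 12 macrophage markers summed to 22117, 9.78, 34019 and 10001 CPM, from 9, 6, 2 and 11 cells, against 653, 314, 310 and 883 CPM in the Prox1 or Mmrn1 cells. Lyz2, the lysozyme of myeloid cells, had a UMI in 13 of these 28 cells, 8 of them among the 9 cells of control 1 and none among the 6 of control 2. Flt1 and Plvap each had a UMI in 13 of the 28 as well, 5 among the 6 cells of control 2 and 7 among the 11 cells of NP137 2. Of the 12 macrophage markers Cd163 alone was at 0 in the Prox1 or Mmrn1 cells of all 4 libraries, and a Lyz2 UMI was found in 30 of these 145 cells. For T and NK cells the markers summed to between 0 and 7.65 CPM in all gated cells, with Nkg7, Gzmb and Cd3d at 0 throughout. Trdc, the constant region of the T cell receptor delta chain, is outside that list and had 15, 1, 12 and 113 UMIs in 8, 1, 5 and 18 gated cells. It stood at 22.9, 1.54, 61.6 and 104 CPM against 1.21, 3.04, 6.41 and 3.26 CPM in blood endothelial cells and rose (log2 fold change 3.5, SE 0.61, adjusted p 0.0215, edgeR), a gene singled out after its values were seen. Markers of Schwann cells and melanocytes stayed at or under 3.07 CPM, with Sox10, Dct and Pmel at 0. B cell markers reached at most 24.9 CPM and mast cell markers at most 59.9 CPM.

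The division followed the number of gate UMIs only in part. Of 243 cells just outside the gate, with 1 lymphatic UMI, 11 had Ccl21a and 21 had Prox1 or Mmrn1. Of 82 cells just inside, with exactly 2 lymphatic UMIs, 8 had Ccl21a and 10 had Prox1 or Mmrn1. Of 241 cells with 3 or more, 124 had Ccl21a and 135 had Prox1 or Mmrn1. The gate also missed some cells rich in Ccl21a. Of 163 kept cells with at least 3 Ccl21a UMIs, 120 were gated, 25 had a Ptprc or Epcam UMI, 17 had fewer than 2 lymphatic gate UMIs and 1 had no endothelial gate UMI. Gated cells held 71.1%, 94.4%, 72.6% and 84.4% of all Ccl21a UMIs of kept cells.

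Prox1 lies on chromosome 1 at 190118035 to 190170714 on the minus strand, Mmrn1 on chromosome 6 at 60924976 to 60989378 on the plus strand, Ccl21a on chromosome 4 at 42772860 to 42773993 on the minus strand and Reln on chromosome 5 at 21884454 to 22344702 on the minus strand (GRCm38, GENCODE M21). Near-identical copies of Ccl21a exist in the mouse genome, so its UMIs may stem from more than 1 copy. The 250 bases upstream of a RefSeq start of each gene are shown because these 4 genes were found in the same cells. The RefSeq start of Mmrn1 lies inside the gene span given above. The windows are written 5′ to 3′ on the strand of the gene, in lower case, with motif matches in capitals, for chr1:190170828-190171077 (minus), chr6:60944067-60944316 (plus), chr4:42773992-42774241 (minus) and chr5:22344706-22344955 (minus) of GRCm38.p6:
Prox1: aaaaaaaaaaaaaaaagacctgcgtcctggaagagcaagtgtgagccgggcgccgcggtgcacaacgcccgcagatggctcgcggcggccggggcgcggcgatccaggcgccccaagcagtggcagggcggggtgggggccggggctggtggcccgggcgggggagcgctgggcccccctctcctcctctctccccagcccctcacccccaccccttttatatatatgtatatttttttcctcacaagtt
Mmrn1: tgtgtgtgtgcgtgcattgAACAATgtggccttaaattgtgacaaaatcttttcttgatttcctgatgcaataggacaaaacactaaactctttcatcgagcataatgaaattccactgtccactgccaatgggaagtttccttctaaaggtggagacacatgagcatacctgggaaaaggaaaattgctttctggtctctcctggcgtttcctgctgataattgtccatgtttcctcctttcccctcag
Ccl21a: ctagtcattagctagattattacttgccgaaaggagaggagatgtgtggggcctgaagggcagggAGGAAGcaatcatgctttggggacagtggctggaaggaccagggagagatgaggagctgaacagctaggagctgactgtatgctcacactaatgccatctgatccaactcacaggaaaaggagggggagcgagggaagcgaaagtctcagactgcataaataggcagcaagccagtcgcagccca
Reln: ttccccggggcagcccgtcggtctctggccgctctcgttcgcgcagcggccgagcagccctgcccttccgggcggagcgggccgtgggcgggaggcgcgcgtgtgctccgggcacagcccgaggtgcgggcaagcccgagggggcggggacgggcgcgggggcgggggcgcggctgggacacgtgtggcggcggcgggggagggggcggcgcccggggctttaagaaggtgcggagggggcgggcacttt
The letters AGGTCA (bound by COUP-TF factors), AACAAT (a SOX core) and AGGAAG (an ETS core) were searched on both strands. The SOX letters occurred in the Mmrn1 window and the ETS letters in the Ccl21a window, while Prox1 and Reln had no match. Among 32851 windows of equal length these letters occurred in 14.0%, 9.42% and 29.5%, so such matches are common and describe the letters alone.

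Over the 8 class sums (gated and blood endothelial cells in 4 libraries) the genes whose log2(CPM + 1) was most like that of Prox1 were Ccl21a (Pearson r of 0.985), Cers4 (0.983), Reln (0.980), Agfg1 (0.967), Rpap3 (0.966), Scn3a (0.966), Maf (0.966) and Abhd17b (0.966). The sums share libraries and the Prox1 level of the blood endothelial sums is 0 by the gate, so these correlations are a description.

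The gated cells were next compared with 904 blood endothelial cells (231, 174, 331 and 168), which had at least 2 endothelial gate UMIs, no Ptprc or Epcam UMI and no UMI of the 4 lymphatic gate genes. UMI sums per library and class were fitted with edgeR with the library as a block. Genes expressed along with the gate genes are not independent of how the cells were chosen. Of 9844 genes tested, 428 passed an adjusted p of 0.05 (4.35%), 195 higher (1.98%) and 233 lower (2.37%) in gated cells. The count rested on control 1 in part, since 71 genes passed without it, and 283, 493 and 244 passed without control 2, NP137 1 and NP137 2. Because 178 of the 323 gated cells lacked Prox1 and Mmrn1, the fold changes are those of a mixed class.

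Of the 13 lymphatic identity genes 7 rose and none fell, with a median log2 fold change of 2.72 against -0.02 over all genes tested. Ccl21a stood at 2174, 1594, 5637 and 815 CPM in gated cells against 6.67, 1.22, 4.58 and 0.815 CPM in blood endothelial cells. All gated sums lay far above all blood sums, with a log2 fold change of 9.36 (SE 0.34, adjusted p 8.94e-05). Reln stood at 65.8, 39.9, 205 and 23.9 CPM in gated cells. Its 135 UMIs in gated cells faced 2 in blood endothelial cells, a ratio of levels of 146 (95% counting interval 39.8 to 1222), and its adjusted p was 1.94e-05. Ackr2, a decoy receptor that clears inflammatory chemokines, rose by a log2 fold change of 3.67 (SE 0.41). Fxyd6, a modulator of the sodium pump, rose by 2.94 (SE 0.52), Sema3d by 2.90 (SE 0.59), Maf, a transcription factor, by 1.99 (SE 0.19) and Klhl4 by 1.62 (SE 0.30). Their adjusted p lay between 0.000224 and 0.0441. The Fxyd6 call was lost in several settings, such as without control 1 (edgeR adjusted p 0.221), without control 2 (0.0742) and under the stricter cell filter (0.0537). The other 6 identity genes did not pass. Nts had a log2 fold change of 3.23 (SE 0.68, adjusted p 0.121), Tbx1 2.72 (SE 0.60), Nr2f2, a COUP-TF that keeps venous and lymphatic identity, 1.29 (SE 0.41), Pdpn, the glycoprotein podoplanin, 0.89 (SE 0.45), Cp 0.30 (SE 0.73) and Thy1 -0.29 (SE 0.24). Pdpn reached 123, 7.91, 120.0 and 91.2 CPM in the blood endothelial sums, low in control 2 alone.

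Genes of lymphatic valves and collecting vessels rose in 3 of 10 tested and fell in none, with a median of 0.55. Celsr1, a planar polarity cadherin needed for valve formation, rose by 2.17 (SE 0.46), Itga9, the integrin chain of valve leaflets, by 1.68 (SE 0.24), and Klf2, a factor induced by flow, by 0.81 (SE 0.14). Foxc2, the valve transcription factor, had 9.17, 10.8, 10.3 and 5.53 CPM against 7.89, 6.70, 8.24 and 2.44 CPM and did not pass. It was higher in the Prox1 or Mmrn1 cells, at 27.4, 58.2, 13.8 and 15.1 CPM. Gata2, Nfatc1, Gja1, Piezo1 and Klf4 did not pass either, with log2 fold changes above 0, and Gja4 had -0.60 (SE 0.54). Cldn11 and Foxp2 were too low to be tested, at means of 0.461 and 4.35 CPM in gated cells.

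Of 17 blood vessel genes tested none rose and 3 fell, with a median of -0.01. The 3 were genes of venules. Selp (P-selectin) stood at 15.3, 49.1, 0 and 8.29 CPM in gated cells and at 112, 267, 167 and 74.1 CPM in blood endothelial cells, without overlap (log2 fold change -3.01, SE 0.35, adjusted p 0.00282). Ackr1, the chemokine receptor of venules, fell (-2.94, SE 0.43), as did Sele, the gene of E-selectin (-2.18, SE 0.46). Flt1 at -0.01 (SE 0.57), Plvap at 0.01 (SE 0.47), Vwf at 0.05 (SE 0.34) and Emcn at 0.49 (SE 0.40) did not pass in the mixed class, although they lay lower in the Prox1 or Mmrn1 cells than in the other gated cells in each library. Among 14 pan-endothelial genes Tie1, an orphan receptor of the angiopoietin system, rose (0.80, SE 0.18) and 13 had values above 0, with a median of 0.73. The 14 genes summed to 4192, 4783, 3765 and 3367 CPM in the Prox1 or Mmrn1 cells and to 4537, 6536, 4544 and 5600 CPM in the other gated cells. Blood endothelial cells had 1894, 3420, 3737 and 4201 CPM, so the Prox1 or Mmrn1 cells lay below them in NP137 2. Erg at 0.99 (SE 0.26, adjusted p 0.0536) and Ecscr at 0.85 (SE 0.20, adjusted p 0.0572) did not pass.

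**Figure D3:**
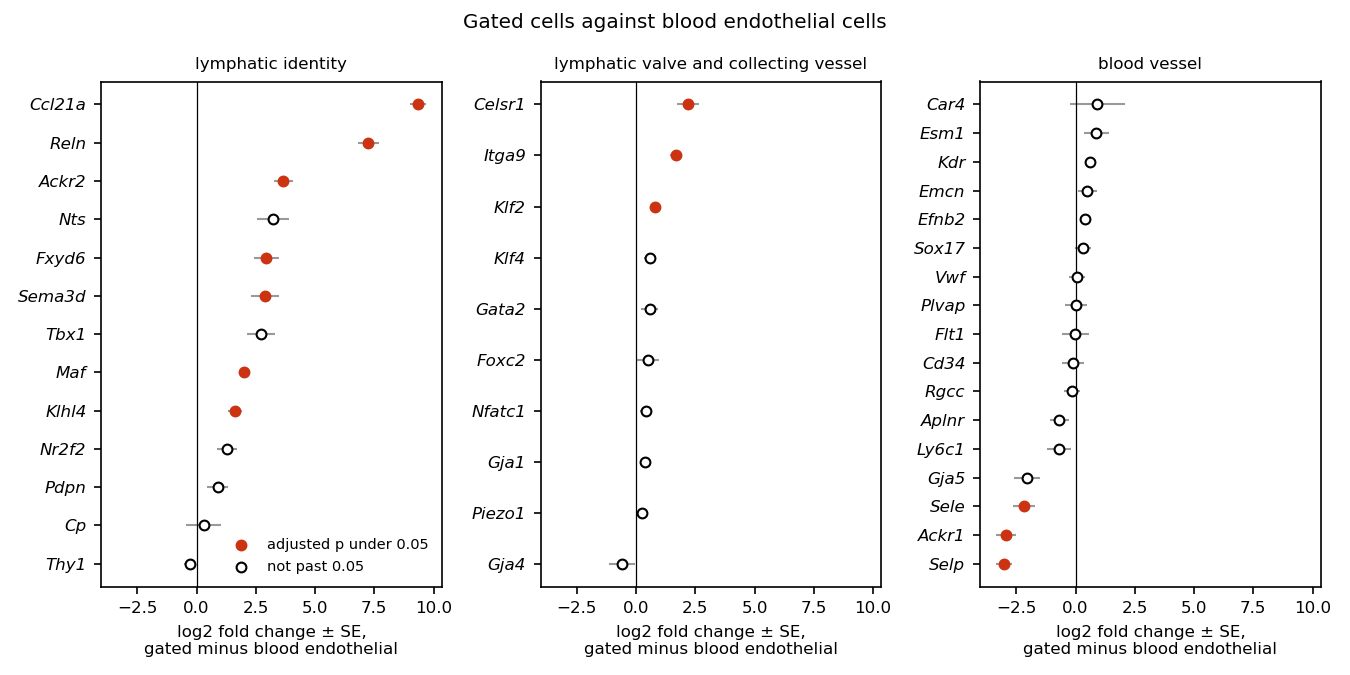
Log2 fold change with SE of gated cells over blood endothelial cells for the tested lymphatic identity, lymphatic valve and blood vessel genes (edgeR, 4 libraries per class). Filled points passed an adjusted p of 0.05: 7 identity and 3 valve genes lie above 0 and 3 blood vessel genes below it.

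In the VEGF family, 2 of 10 genes tested rose and 2 fell. Nrp2, the co-receptor of Flt4 for VEGF-C, stood at 350.2, 233, 493 and 203 CPM in gated cells against 170.4, 142, 144 and 111 CPM, each gated sum above each blood sum (log2 fold change 1.04, SE 0.18, adjusted p 0.00673). Pgf, the placental growth factor that binds Flt1, stood at 167, 132, 313 and 147 CPM against 30.9, 17.7, 49.5 and 38.3 CPM (2.41, SE 0.20, adjusted p 0.00012). Vegfa fell (-1.38, SE 0.29), as did Ccbe1, a cofactor of VEGF-C processing (-2.14, SE 0.52). Kdr (VEGFR-2) at 0.62 (SE 0.22), Nrp1 at 0.13 (SE 0.31), Vegfb at -0.24 (SE 0.30) and Vegfc at -0.55 (SE 0.23) did not pass. Vegfd at -1.21 (SE 0.54), with a mean of 4.60 CPM in gated cells, did not pass either, and Adamts3, with 0.995 CPM, was too low to be tested.

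The neuropilins divided the gated cells. In the Prox1 or Mmrn1 cells Nrp1, the co-receptor of VEGFR-2, stood at 10.97, 11.6, 34.4 and 45.2 CPM and Nrp2 at 686, 1024, 606 and 356 CPM. The other gated cells had 375, 425, 222 and 342 CPM of Nrp1 and 220.5, 113, 162 and 135 CPM of Nrp2. Vegfc, the ligand of Flt4, was at 0, 0, 0 and 6.03 CPM in the Prox1 or Mmrn1 cells and at 36.0, 46.0, 101 and 43.8 CPM in the other gated cells. The classes did not overlap for any of the 3 genes, and the share of all genes without overlap is not given here. Pgf did overlap, at 318, 139.6, 324 and 184 CPM against 108, 131, 283 and 131 CPM.

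Netrin-1, the target of NP137, is a secreted guidance protein whose receptors include the UNC5 family, DCC and neogenin. Of 14 netrin pathway genes 10 had a UMI in gated cells and 6 could be tested. Unc5b, the UNC5 receptor of vessels, rose, at 189.6, 210.4, 185 and 123 CPM in gated cells against 77.6, 93.7, 61.4 and 59.5 CPM in blood endothelial cells. Every gated sum was above every blood sum (log2 fold change 1.21, SE 0.16, adjusted p 0.00201). It reached 302, 314, 207 and 184 CPM in the Prox1 or Mmrn1 cells and 146, 195, 121 and 96.8 CPM in the other gated cells, and 81 of 145 and 93 of 178 cells had a UMI of it. The latter cells were the deeper ones. Ntn1, the gene of netrin-1 on chromosome 11, stood at 52.0, 9.21, 51.3 and 7.37 CPM in gated cells against 30.3, 18.9, 0.916 and 2.44 CPM, with a log2 fold change of 0.90 (SE 0.78, adjusted p 0.651). Its highest level in any endothelial class was 137 CPM in the Prox1 or Mmrn1 cells of control 1, where 20 of 44 cells had a UMI, and it was 34.9, 55.1 and 15.1 CPM in those of the other libraries. Within each library the Prox1 or Mmrn1 cells were above the other gated cells, which had 19.1, 5.31, 40.4 and 3.98 CPM.

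Mcam (CD146), a receptor reported to bind netrin-1, stood at 405, 422, 123 and 524 CPM in gated cells and did not pass (0.69, SE 0.38). It was low in the Prox1 or Mmrn1 cells, at 21.9, 11.6, 20.7 and 93.5 CPM, and high in the other gated cells, at 553, 485, 424 and 714 CPM. Neo1, Rgma and Rgmb did not pass, with log2 fold changes of -0.59 (SE 0.66), -1.58 (SE 0.65) and -0.27 (SE 0.31). Ntn4 and Unc5c had means of 5.73 and 1.46 CPM in gated cells, and Adora2b 3.22 CPM. Dcc, Dscam, Unc5d and Ntng1 had no UMI in gated cells.

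**Figure D4:**
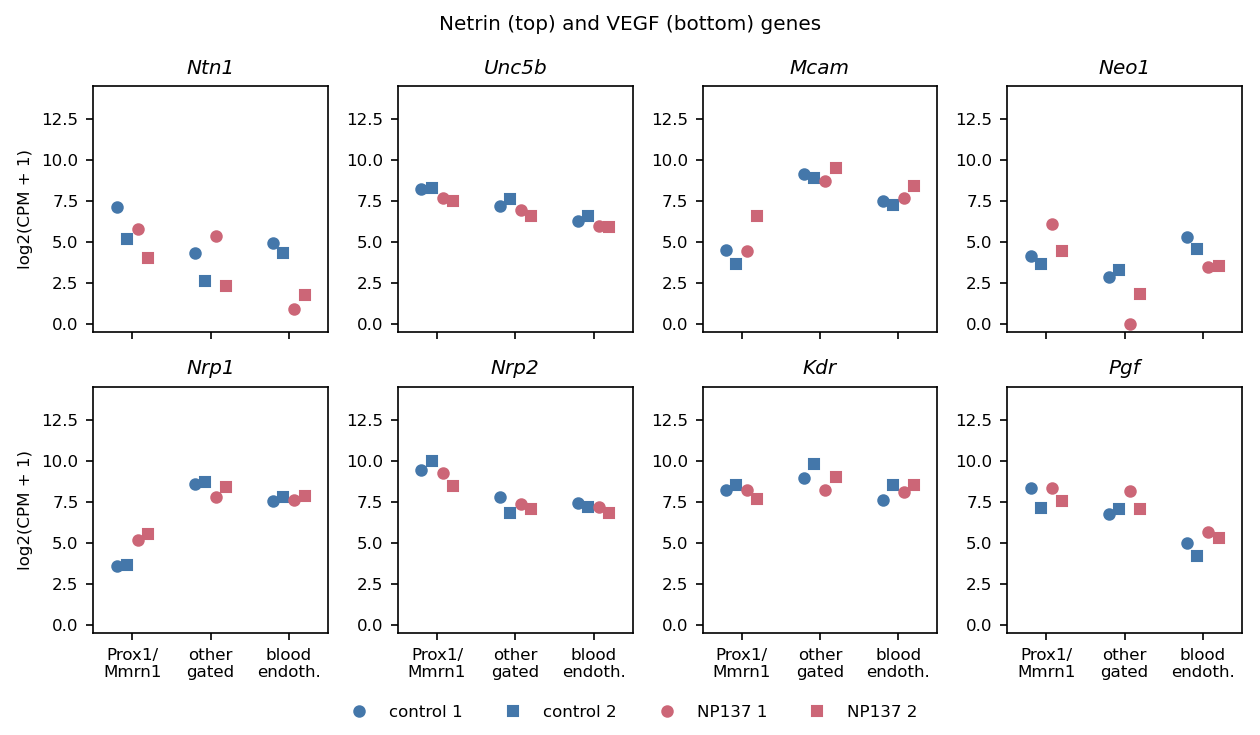
Level of 4 netrin genes (top) and 4 VEGF genes (bottom) as log2(CPM + 1) in the gated cells with a Prox1 or Mmrn1 UMI, the other gated cells and the blood endothelial cells, with 1 point per library (symbols by sample number, blue for control, red for NP137). Unc5b is highest and Mcam and Nrp1 are lowest in the Prox1 or Mmrn1 cells of each library.

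Genes of leukocyte traffic rose in 7 of 17 tested and fell in 4, with a median of 0.51. Beside Ccl21a and Ackr2 the risen genes were Mrc1, the mannose receptor (3.05, SE 0.27), Il7, a T cell survival cytokine (2.51, SE 0.62), Stab1, a scavenger receptor (1.76, SE 0.24), Spns2, a transporter that exports sphingosine-1-phosphate (0.92, SE 0.23), and S1pr1, its receptor (0.75, SE 0.16). Stab1 stood at 355, 147, 375 and 191 CPM against 68.5, 45.0, 76.9 and 101 CPM. Il7 was low, at 10.7, 7.68, 25.7 and 7.37 CPM against 0.607, 3.04, 3.66 and 0.815 CPM, and lay at 24.1 to 46.5 CPM in the Prox1 or Mmrn1 cells. Selp, Sele, Vcam1 (-1.48, SE 0.31) and Csf1 (-1.26, SE 0.31) fell. Mrc1 is also a macrophage gene, and F13a1, another, rose as well (2.99, SE 0.33). F13a1 lay mainly in the cells with Lyve1 alone, at 1118, 9.78, 2373 and 301 CPM, while Mrc1 was at 170.1, 244, 96.4 and 189.9 CPM in the Prox1 or Mmrn1 cells. The 12 macrophage markers summed to 2395, 52.2, 904 and 1474 CPM in gated cells and 1019, 373, 442 and 995 CPM in blood endothelial cells, and their part in these results was not tested.

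Among the genes with the largest changes by the naming rule, Gap43, a growth cone protein, stood at 64.2, 38.4, 226 and 179 CPM against 7.89, 8.52, 5.49 and 1.63 CPM (3.98, SE 0.67, adjusted p 0.0469). Its call was lost without control 1 (edgeR adjusted p 0.138) or NP137 1 (0.0714). Gap43 had a UMI in 66 of the 145 Prox1 or Mmrn1 cells and in 3 of the other 178. Pard6g, a polarity protein, rose by 3.08 (SE 0.22), Kctd12, an auxiliary subunit of GABA-B receptors, by 1.75 (SE 0.27), Nectin2, an adhesion receptor, by 1.95 (SE 0.20), Emid1 by 1.72 (SE 0.26) and Add3, a cytoskeletal adducin, by 1.69 (SE 0.24). Among the genes that fell, Acta2, smooth muscle actin, stood at 99.4, 67.6, 71.9 and 176 CPM against 488, 481, 267 and 1061 CPM, without overlap (-2.50, SE 0.17). Grem1 (-2.91, SE 0.40), Ifitm1 (-2.81, SE 0.31), Loxl3 (-2.66, SE 0.39), Basp1 (-2.37, SE 0.23), Crabp2 (-2.34, SE 0.46), Tpm2 (-2.20, SE 0.26), Ccl3 (-2.06, SE 0.33), Sfrp2 (-2.03, SE 0.25), Axl (-1.95, SE 0.34) and Col6a3 (-1.90, SE 0.19) fell too.

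Markers of fibroblasts, pericytes and keratinocytes summed higher in the blood endothelial class in each library. Its fibroblast markers summed to 4808, 7353, 3781 and 15865 CPM against 2095, 516, 2259 and 4840 CPM in gated cells, and Pdgfra and Pdgfrl fell. Pericyte and smooth muscle markers summed to 835, 855, 476 and 1861 CPM against 240, 539, 308 and 648 CPM, and Acta2, Pdgfrb and Tagln fell, while the other 4 of 7 tested had values above 0, with a list median of 0.21. Keratinocyte markers summed to 1696, 2158, 5052 and 249 CPM against 560, 826, 2197 and 167 CPM, and Perp, Lgals7 and Sfn fell. YFP and the tumour suppressor gene Cdkn2a had log2 fold changes of -2.28 (SE 0.53, adjusted p 0.0952) and -2.36 (SE 0.79) and did not pass. A YFP UMI was found in 36, 5, 6 and 4 gated cells. The neutrophil gene Il1b fell. Platelet markers were higher in gated cells in each library, at 87.2, 16.9, 71.9 and 166 CPM against 35.2, 12.8, 18.3 and 42.4 CPM, and Pf4 rose (1.84, SE 0.26). The 4 platelet markers summed to 756, 19.6, 2901 and 1011 CPM in cells with Lyve1 alone (9, 6, 2 and 11 cells). Of these markers Ppbp and Gp9 were at 0 in the cells with Lyve1 alone of all 4 libraries. Macrophage markers, given above, were higher in gated cells in control 1, NP137 1 and NP137 2. The part of these cells in the results was not tested.

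Of 6 angiopoietin and TIE genes tested 3 passed. Angpt2, the ligand that loosens vessels, rose (1.68, SE 0.23), as did Tie1, and Svep1 fell (-2.12, SE 0.45). Of the guidance genes Sema3f rose (0.94, SE 0.18) beside Nrp2 and Sema3d, 3 of 16 tested. Cgnl1, a junction adaptor, rose (1.31, SE 0.27), 1 of 9 junction genes, with Tjp1 (0.59, SE 0.18) and F11r (0.81, SE 0.24) above 0 and not past the threshold. The junction list summed to 735, 884, 599 and 799 CPM in the Prox1 or Mmrn1 cells and to 1448, 1518, 1232 and 1761 CPM in the other gated cells. In blood endothelial cells it summed to 691, 939, 1097 and 1099 CPM. Of 18 matrix genes Timp3 (0.69, SE 0.15), Reln and Itga9 rose. Lpl, lipoprotein lipase, fell (-1.53, SE 0.35) and Mrc1 and Stab1 rose among 11 scavenger and lipid genes. Of 6 class II and checkpoint genes tested 3 fell, H2-Aa (-1.51, SE 0.22), H2-Ab1 (-1.28, SE 0.28) and Cd74 (-1.65, SE 0.31), with a list median of -1.20, while all 9 class I genes tested had values above 0 and none passed. Ifit2 rose (1.30, SE 0.26), 1 of 15 interferon genes, of which 13 lay above 0. P4ha1 (-0.76, SE 0.18) fell beside Vegfa among 19 hypoxia genes. Of 16 immediate early, 18 cell cycle and 8 Notch genes none passed, with the smallest adjusted p for Jund (0.0734), Birc5 (0.168) and Notch1 (0.127). Rplp0 (-0.38, SE 0.09) fell among 20 ribosomal protein genes and mt-Co3 (-0.27, SE 0.07) among 13 mitochondrial genes.

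The gated cells were also divided by Lyve1. Of 212 cells with a Lyve1 UMI 118 (55.7%) had Prox1 or Mmrn1 and 112 had Ccl21a, and of 111 without it 27 (24.3%) and 20 did. Lyve1 is a gate gene, so a cell without it entered only through Prox1, Mmrn1 or Flt4. Of the 111 cells without Lyve1, 84 had Flt4 alone, and of these 81 had Flt1 and 2 had Ccl21a. The comparison thus sets cells of different gate genes against each other and does not measure variation among lymphatic cells. Of 4977 genes tested with the library as a block, 19 passed (0.382%), 13 higher (0.261%) and 6 lower (0.121%) in Lyve1-positive cells. The 13 identity genes all had values above 0, with a median of 1.57 against 0.01 over all genes, and Reln (3.15, SE 0.42, adjusted p 0.00877) and Maf (1.94, SE 0.30) passed. Kctd12 stood at 369.7, 172, 379 and 127 CPM in positive cells against 109, 63.1, 80.6 and 65.9 CPM in negative cells (1.53, SE 0.26, adjusted p 0.0414), without overlap. Its call was lost without control 1 (adjusted p 0.353), control 2 (0.0696) or NP137 1 (0.0646). Sema3a, a repellent semaphorin, rose (2.08, SE 0.36), as did Pard6g, Nsg1, Adgrg3, Fam174b, Arhgdib and Col23a1. The arterial gap junction gene Gja4 fell, at 8.04, 131, 13.8 and 60.8 CPM against 111, 1393, 121 and 349.8 CPM (-3.12, SE 0.26), and Kdr fell (-0.99, SE 0.18), as did Smad7, Heg1, Ptprg and Eogt.

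Genes of other cells did not all move the same way with Lyve1. Ccl6 and Ctss, genes of macrophages, and Rgs5, a pericyte gene, rose, and all 9 macrophage genes tested had values above 0, with a median of 2.27. Of 6 fibroblast genes tested 0 had values above 0, with a median of -0.88, and none passed. Without control 1, 2 genes passed, both lower in positive cells, and 11, 23 and 41 passed without control 2, NP137 1 and NP137 2. The part of the macrophage-rich cells was not tested. Depth raises the chance of a Lyve1 UMI. Each gated cell with at least 1000 UMIs was thinned to 1000 and its Lyve1 status read again, which left out 4, 0, 5 and 0 cells. Of 908 genes 48 then passed, 17 higher and 31 lower. Kctd12 then had 0.98 (adjusted p 0.174), while Nr2f2 rose by 2.13 (adjusted p 0.0134). Without thinning Nr2f2 (1.57, SE 0.31, adjusted p 0.0568), Gmfg, Rap2a and Ptpn18, with values above 0, and Adamts1, Ier3, Tcim, Azin1 and Prex2, with values under 0, fell short of the threshold.

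Gated cells made up 0.839% (95% exact interval 0.682 to 1.02), 0.898% (0.669 to 1.18), 0.409% (0.318 to 0.518) and 0.627% (0.513 to 0.757) of kept cells. Both NP137 libraries were below both controls, a difference of -0.35 percentage points between the means, and the exact 2-sided permutation p was 0.333, the smallest that 4 libraries allow. With doublets removed the difference was -0.39 points and under the stricter cell filter -0.45, without overlap of the groups. With at least 3 lymphatic gate UMIs the shares were 0.599%, 0.581%, 0.343% and 0.479%, again without overlap, a difference of -0.18 points. With UMIs of at least 2 different lymphatic gate genes they were 0.42%, 0.44%, 0.343% and 0.461%, and the groups overlapped. Cells with Prox1 or Mmrn1, a class chosen after the values were seen, made up 0.377%, 0.211%, 0.313% and 0.219%, with a difference of -0.03 points and overlapping groups. Kept cells with at least 1000 UMIs numbered 10707, 4520, 13226 and 15579. With each of them thinned to 1000 UMIs the gate took 0.355%, 0.288%, 0.333% and 0.186%, a difference of -0.06 points. Kept cells include tumour cells and leukocytes, whose numbers also set these shares. Of endothelial cells with at least 2 endothelial gate UMIs the gated cells were 24.9%, 18.4%, 13.4% and 31.7%, so the NP137 libraries lay on either side of both controls (exact permutation p of 1). Intervals cover counting error only.

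**Figure D5:**
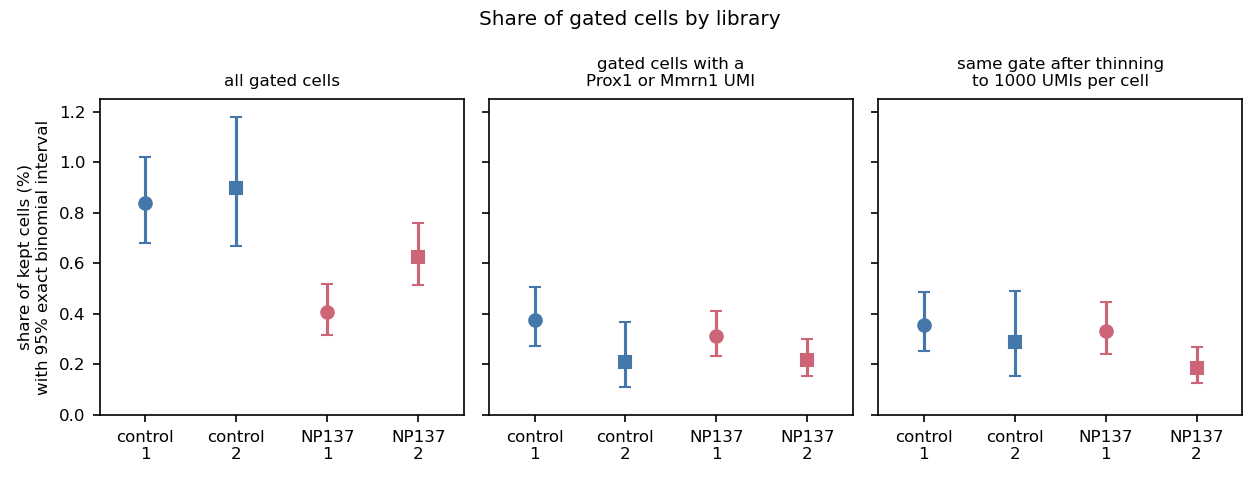
Share of kept cells (%, y axis from 0) in each library for all gated cells and the gated cells with a Prox1 or Mmrn1 UMI. The last panel has the same gate after thinning to 1000 UMIs, as a share of kept cells with at least 1000 UMIs. Intervals are 95% exact binomial (blue for control, red for NP137). The NP137 libraries lie below the controls in the first panel (0.409% and 0.627% against 0.839% and 0.898%) and overlap with them in the other panels.

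No gene differed between NP137 and control in the gated cells at an adjusted p of 0.05 in edgeR's quasi-likelihood test, of 7552 tested (0.0%). At an unadjusted p under 0.05 there were 316, and DESeq2 called 3. The libraries of the groups did not overlap for 35.2% of the genes tested. Leaving out NP137 1 or NP137 2 gave 14 and 12 calls, with the lone library assumed to vary like the others, and none without a control library. The share of Prox1 or Mmrn1 cells among the gated cells differed by library (44.9% and 23.5% against 76.5% and 34.9%), and its part in the values below was not tested.

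Values of named genes are therefore given without a call. Gap43 was at 64.2 and 38.4 CPM in the controls, and 226 and 179 CPM under NP137 (log2 difference 1.97, SE 0.36, adjusted p 0.785). Within the Prox1 or Mmrn1 cells a Gap43 UMI was found in 17 of 44 and 7 of 12 control cells, and in 20 of 52 and 22 of 37 under NP137. These shares of the groups overlapped, at depths that were not made equal. Fabp5, a fatty acid carrier, had 165 and 117 CPM against 400.4 and 453 CPM, and Gpx3, a secreted peroxidase, 53.5 and 36.9 CPM against 139 and 222 CPM. Tnc, the matrix protein tenascin C, had a log2 difference of 1.95. Tagln, a smooth muscle actin-binding protein, had 56.6 and 29.2 CPM against 113 and 209 CPM. Lower under NP137 were Hbegf, a growth factor of the EGF family (327 and 539 against 108 and 142 CPM), Sox7, an endothelial transcription factor (189.6 and 237 against 56.5 and 84.7 CPM), Aqp1, a water channel (910 and 743 against 375 and 345 CPM), Rgcc (557 and 421 against 205 and 216 CPM) and Gm42418 (24531 and 15564 against 8840 and 8101 CPM). The groups did not overlap for these 10 genes by the rule that named them.

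The lists ran as follows, with a median of -0.01 over all genes tested. All 13 lymphatic identity genes had values above 0, with a median of 0.77, and 2 of 14 blood vessel genes did, with a median of -0.86. The 13 identity genes summed to 3620 and 2502 CPM in the controls and to 8542 and 1967 CPM under NP137, so NP137 1 alone lay above the controls and NP137 2 was lowest. Within the Prox1 or Mmrn1 cells the sums were 11923 and 16640 CPM in the controls and 10628 and 5927 CPM under NP137, both lower. The 18 blood vessel genes summed to 4626 and 7831 against 2069 and 5579 CPM in gated cells. Ccl21a (0.77, SE 0.90), Reln (0.89, SE 1.07) and Vwf (-1.67, SE 0.45) are examples. Of 19 hypoxia and glycolysis genes 18 lay above 0, with a median of 0.68. Among them Bnip3, a mitophagy receptor induced by low oxygen, had 10.7 and 10.8 CPM against 61.6 and 58.9 CPM (2.48, SE 0.41, adjusted p 0.647), and Ldha, lactate dehydrogenase, at 419 and 366 against 611 and 776 CPM. All 13 interferon genes lay under 0, with a median of -0.96. Isg15, a ubiquitin-like protein induced by interferon, is an example (327 and 909 against 179.7 and 313 CPM), with control 2 highest. Clec14a, an endothelial lectin, stood at 107 and 144 against 20.5 and 28.6 CPM (-2.24, SE 0.37) and was at most 23.3 CPM in Prox1 or Mmrn1 cells of any library.

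Signs of RNA quality and handling moved along. None of 13 mitochondrially encoded genes lay above 0 (median -0.34), and their sums of 56095 and 37850 against 39848 and 38024 CPM were high in control 1 alone. Of 20 ribosomal protein genes 19 lay above 0 (median 0.23), and of 16 immediate early and dissociation genes 2 did (median -0.46).

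Of 5 class II and checkpoint genes tested 4 lay above 0, without a call. H2-Aa had 16.8 and 4.61 CPM against 51.3 and 78.3 CPM. The 8 fibroblast markers summed to 2095 and 516 CPM against 2259 and 4840 CPM in gated cells, and the 6 neutrophil markers to 141 and 46.1 CPM against 1458 and 403 CPM. All 7 fibroblast and all 3 neutrophil genes tested lay above 0, as did 5 of 6 pericyte and smooth muscle genes and 4 of 6 keratinocyte genes. Of 10 macrophage genes 4 lay above 0 (median -0.09), with sums of 2395 and 52.2 against 904 and 1474 CPM, and neither of 2 tumour genes did (median -0.81). The part of these signals in the values was not tested.

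In the netrin and VEGF lists no gene passed. Unc5b stood at 189.6 and 210.4 CPM against 185 and 123 CPM (log2 difference -0.40, SE 0.31) and Ntn1 at 52.0 and 9.21 against 51.3 and 7.37 CPM (-0.59, SE 1.24), so Ntn1 varied by sample number more than by treatment. Mcam had -0.29 (SE 0.65), Kdr -0.80 (SE 0.39), Nrp1 -0.86 (SE 0.52), Nrp2 0.23 (SE 0.46) and Pgf 0.59 (SE 0.40). The SE of Ntn1 was larger than its difference and larger than that of Unc5b, so the level of Ntn1 was the less precise.

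Whether the NP137 difference itself differed between gated and blood endothelial cells was tested by an interaction term. Of 9844 genes 2 passed (0.0203%), Ccl5, with a larger value in gated cells (0.0102% higher), and Ramp3, with a smaller one (0.0102% lower). At an unadjusted p under 0.05 there were 837. Ccl5, a chemokine of lymphocytes, stood at 4.59, 3.07, 0 and 339.9 CPM in gated cells against 18.8, 7.91, 0 and 13.03 CPM in blood endothelial cells (difference of NP137 effects 6.39, SE 0.62, adjusted p 0.00218), and 353 of its 369 UMIs in NP137 2 came from 1 cell. Without NP137 2 its value was 1.77 with an adjusted p of 1. Ramp3, a subunit of adrenomedullin receptors, stood at 81.0, 124, 77.0 and 75.5 CPM in gated cells, highest in control 2, and at 18.8, 25.0, 134 and 106 CPM in blood endothelial cells, higher under NP137 (-2.88, SE 0.35, adjusted p 0.00742). The count of calls rose to 68, 16, 38 and 138 without control 1, control 2, NP137 1 and NP137 2. Clec14a (-2.49, SE 0.39), Ly6c1 (-1.90, SE 0.32) and Nid2 (-1.98, SE 0.33) had the smallest p of their lists and did not pass, each with an adjusted p of 0.0523. Ntn1 had 3.38 (SE 1.13, adjusted p 0.427), and Unc5b had -0.0020 (SE 0.39).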

How the data were processed

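Single cells of skin tumours were profiled with 10x 3' chemistry in 2 control and 2 NP137 libraries. The authors deposited raw UMI counts per gene and barcode, with 31053 genes per library. The file headers, per the deposited files, name version 3.0.2 of the 10x software. The build mm10 and Seurat 3.1.5 stand in the submitters' processing notes. A further allele of the labelled genotype and 1 gene of the valve list are not reported here, and the gene is left out of that list's counts. The members and lists were chosen with earlier results of these data known.

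A barcode was kept if it had 200 genes or more and its mitochondrial share stayed under 20%. Sums of UMIs were formed for each class in each library. The sums that were tested had at least 10 cells each. They were filtered with filterByExpr, scaled by TMM and tested with edgeR 4.0.16 (quasi-likelihood, robust, R 4.3.3) with Benjamini-Hochberg adjustment at 0.05. Sums of the cells with Flt4 alone, Flt4 and Lyve1, or Lyve1 alone got no test and held as few as 2 cells. The 9 gate genes stayed in the sums and got no test. CPM values are unscaled UMI counts relative to the total of a sum, without TMM. SE was the log2 fold change divided by the root of F. Shares were compared by exact permutation over the 6 assignments of libraries, with 95% exact Clopper-Pearson intervals. A count of 0 was given its limit of 3 counts. Scripts were tested on simulated data. Gated cells held 653958, 651119, 194792 and 1085691 UMIs in control 1, control 2, NP137 1 and NP137 2, so NP137 1 gives the least precise levels.

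Named genes were, against blood endothelial cells, the 12 of largest change per direction among called genes of 1 sign in all 4 libraries and at least 100 CPM in the higher class. For NP137 and Lyve1 they were up to 8 per direction with groups that did not overlap, filled up to 5 by smallest p. To these came the detected gate, identity, valve, netrin and VEGF genes, the 3 of smallest p of each other list, and the 8 genes most like Prox1. Genes beyond this rule were picked with their values known. The alternatives tried were DESeq2 1.42.0, its size factors, no count filter, a filter of 500 genes and 10% mitochondrial UMIs, stricter gates, removal of the highest Scrublet scores (0.8% per 1000 barcodes), thinning to 1000 UMIs, the sample number as a block and leaving out each library.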

Additional observations from a re-analysis of the deposited data

Results flagged for a closer look

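The NP137 effect differed between gated and blood endothelial cells by the interaction test for 2 genes. For Ccl5 the difference was 6.39 (log2, SE 0.62, edgeR adjusted p 0.00218). Its UMIs were found in 3, 1, 0 and 4 gated cells of control 1, control 2, NP137 1 and NP137 2, and 1 cell of NP137 2 held 353 of 369. The call was lost without NP137 2 (1.77), with doublets removed (5.81, adjusted p 0.276) and against blood endothelial cells with 1 endothelial gate UMI (5.33, adjusted p 0.591). For Ramp3 the difference was -2.88 (SE 0.35, adjusted p 0.00742), and it lay between -3.09 and -2.75, with the call kept, when each library was left out. The Ramp3 call was lost when UMIs of at least 2 different gate genes were required (-2.30, adjusted p 0.482) and against blood endothelial cells with 1 endothelial gate UMI (-1.32, adjusted p 0.619).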

How the results depend on the processing

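The cause of each change below was not tested. Against blood endothelial cells 428 genes passed, with 1027 under no count filter, 1606 against blood endothelial cells with 1 endothelial gate UMI, 35 with no replicate block, and 71 to 493 with each library left out. DESeq2 called 318. For NP137 against control, where edgeR called 0, DESeq2 called 3, no count filter gave 94 and leaving out each library 0 to 14. The replicate block gave 13 calls. The deviations of same-numbered libraries correlated at 0.124 over 7559 genes, and the labels give the numbers no shared origin. For the interaction, with 2 calls, there were 179 under no count filter, 1 with UMIs of at least 2 different gate genes, 12 with doublets removed, 0 (980 at an unadjusted p under 0.05 in edgeR) against blood endothelial cells with 1 endothelial gate UMI, and 16 to 138 with each library left out. For Lyve1, with 19 calls, there were 192 under no count filter, 48 after thinning, and 2 to 41 with each library left out. The NP137 difference in the share of endothelial cells, 0.919 points, turned to -0.782 under the stricter cell filter, to -2.32 without control 2 and to -8.23 without NP137 2, the lowest with a library left out, the highest being 10.1 without NP137 1. Of the named genes against blood endothelial cells, 271 values under alternatives kept their call and 41 lost it, all in the same direction. With 194792 UMIs in the gated cells of NP137 1, genes under about 10 CPM rested on 1 or 2 UMIs there.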
